A study of Mus musculus with 4 samples.

Results

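Spink1 encodes a small secreted inhibitor of trypsin, and it was followed here as 1 gene among the 14979 genes of a CAGE count table from mouse colon tumours. It was found by its symbol in the gene column (ENSMUSG00000024503.4). It was taken up because its level separates the antibody groups, so its own values are a description and carry no test. CAGE (cap analysis of gene expression) reads RNA from its capped 5′ end and counts tags per gene, so a level does not depend on transcript length.

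The tumours arose in the colon of mice given azoxymethane, a carcinogen, and dextran sulfate sodium, which inflames the colon (AOM/DSS). Both groups carried this treatment. The mice differed in the antibody given: control IgG, or one that binds MAdCAM-1, a vessel protein through which lymphocytes bearing α4β7 integrin enter the gut. The design text gives 2 mice for each antibody, and the 4 libraries, called IgG 1, IgG 2, MAdCAM1 1 and MAdCAM1 2, were taken as 1 per mouse. Another line of that text is unclear on the number of mice, and if libraries shared an animal, the spread between them would be technical. Depth ran from 14850923 to 16891234 tags per library. Strain, age, sex and doses are not given in the sources used here, and the tissue is bulk tumour with no separation of cell types.

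Trypsin is made as an inactive precursor in pancreatic acinar cells, and Spink1 is packed with it so that trypsin activated too early is blocked. The protein holds a single Kazal domain, the fold shared by the Spink family, and it is also made by gut mucosa and by several carcinomas. Trypsin-like proteases cut and activate the receptor PAR2, and Spink1 has been reported to bind the EGF receptor. In people its serum level rises in the acute-phase response, in which IL-6 signals through STAT3.

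Spink1 was about 7 times as abundant in the tumours of mice given the MAdCAM-1 antibody as in those of control mice. It had 858 tags in IgG 1 and 683 in IgG 2, against 4735 in MAdCAM1 1 and 5073 in MAdCAM1 2. As CPM, the share of all tags on a common scale with library sizes adjusted by TMM factors, these were 48.8 and 42.2 against 332 and 328. Both IgG libraries were low, both MAdCAM1 libraries were high, and the groups did not overlap. Of all tested genes, 4.05% were likewise higher without overlap by at least 1 on the log2 scale and 1.27% lower by as much, and since this contrast chose Spink1, nothing is read from that.

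The mean was 45.5 ± 4.66 CPM (SD, n = 2) in the IgG group and 330.0 ± 2.17 CPM (SD, n = 2) in the MAdCAM1 group, a ratio of 7.25. The 4 ratios between a MAdCAM1 and an IgG library ran from 6.73 to 7.85. In order of level, MAdCAM1 1 and MAdCAM1 2 came first and differed by 1.01-fold, within counting error: their 95% exact Poisson intervals were 322 to 341 and 319.5 to 338 CPM. IgG 1 and IgG 2 followed, 1.16-fold apart, with intervals of 45.6 to 52.2 and 39.1 to 45.5 CPM. These intervals cover the counting of tags only, and tags without molecular identifiers are not independent molecules.

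**Figure D1:**
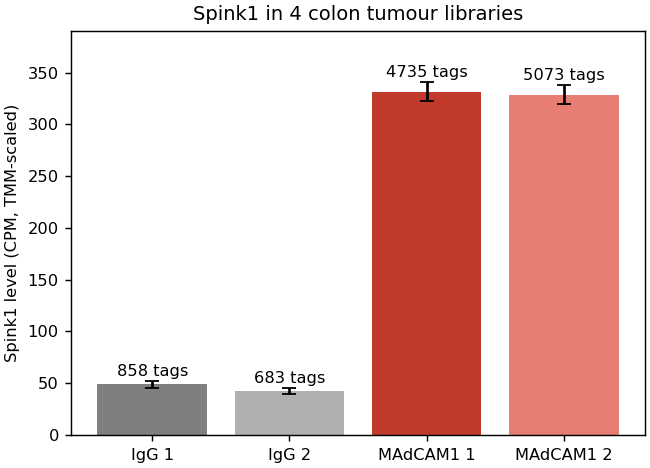
Spink1 level in CPM (linear axis from 0) in each of the 4 libraries, with the raw tag count above each bar and the 95% exact Poisson interval as the error bar. The MAdCAM1 bars stand at 332 and 328 CPM and the IgG bars at 48.8 and 42.2 CPM.

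Spink1 also stood higher in the order of genes within the MAdCAM1 libraries. By tag count it held place 4424 in IgG 1 and 4926 in IgG 2, against places 530 and 532 in MAdCAM1 1 and MAdCAM1 2. Among the 2041 tested genes with a mean of at least 100 CPM it had the ninth largest log2 fold change, place 9. The genes above it there were the mucus protein Zg16, the mucin Muc3, the kallikrein Klk1, the glycosyltransferase B3gnt7, the antimicrobial lectin Reg3b, Sval1, and the immunoglobulin genes Jchain and Iglv1.

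Several of those genes differed far more between mice of a group. Zg16 stood at 28.5 and 6.74 CPM in the IgG pair, against 1197 and 347 CPM in the MAdCAM1 pair, and Jchain at 42.7 and 449.6 CPM within the MAdCAM1 group alone. For the 200 genes closest to Spink1 in mean level, the median fold difference was 1.19 between the IgG mice and 1.14 between the MAdCAM1 mice. In these terms, 91 of the 200 differed less than Spink1 between the IgG mice and 8 of the 200 between the MAdCAM1 mice. The spread within groups entered the choice of Spink1, so this closeness is a description too.

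No other gene had the tag counts of Spink1 in all 4 libraries (0 genes). Spink1 lies on the minus strand of chromosome 18, 43861139 to 43870622 (GRCm39, GENCODE M39), with 5 annotated transcripts and 4 exons in the canonical one. The next listed genes on its lower side were Eif3j2, 250.3 kb away, and Dpysl3, 289.6 kb away. On its upper side lay Dcp2, 642.9 kb away, then Mcc and Ythdc2.

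The log2 fold changes of the neighbours lay between −0.37 and 0.23. The mRNA decapping gene Dcp2 stood at 29.6 and 28.8 CPM in the IgG pair, against 31.2 and 37.4 CPM in the MAdCAM1 pair, a log2 fold change of 0.23 (SE 0.17). Dpysl3, a cytoskeletal regulator of neurons, had a log2 fold change of −0.37 (SE 0.16), Mcc −0.12 (SE 0.23) and Ythdc2 0.20 (SE 0.20). Eif3j2 had 131, 176, 165 and 140 tags (IgG 1, IgG 2, MAdCAM1 1, MAdCAM1 2 in turn). Its log2 fold change of 0.17 turned negative without IgG 1 or without MAdCAM1 1, and that of Mcc turned positive without MAdCAM1 2. A miRNA gene inside Eif3j2 had the same tags in all 4 libraries, so their counts cannot be told apart. The adjusted p-values of these neighbours ran from 0.751 to 0.950 (edgeR's quasi-likelihood test with Benjamini-Hochberg adjustment over 14331 tested genes).

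Of the 11 other Spink genes looked for, 2 are listed among the genes analysed here, Spink4 and Spink10. Spink4, a Kazal inhibitor of intestinal goblet cells, was far more abundant than Spink1 in every library. It had 24524 tags in IgG 1, 10982 in IgG 2, 60382 in MAdCAM1 1 and 52966 in MAdCAM1 2, which are 1396, 679, 4228 and 3430 CPM. It was higher in both MAdCAM1 libraries, as were 19.7% of all tested genes, with 18.7% lower in both. The IgG mice differed from each other by more than for Spink1.

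The log2 fold change of Spink4 was 1.88 (SE 0.41), with an adjusted p of 0.665 in edgeR's quasi-likelihood test. Across the whole table that test called 0 genes (0%), with 5.09% of genes higher and 1.82% lower at an unadjusted p under 0.05. Limma-voom also called 0 genes (0%). The 2 other tools run called Spink4 higher: edgeR's exact test, which called 1.06% of genes higher and 0.0628% lower, and DESeq2, which called 1.53% higher and 0.14% lower. Spink1 tags amounted to 3.50% and 6.22% of Spink4 tags in the IgG libraries and 7.84% and 9.58% in the MAdCAM1 libraries.

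Spink10 was near the lower limit, at 25 and 22 tags in the IgG pair, against 48 and 24 in the MAdCAM1 pair. MAdCAM1 1 alone was high, and the log2 fold change was 0.81 (SE 0.54, quasi-likelihood adjusted p = 0.824). Spink5 and Spink14, annotated beside Spink1 on its chromosome, do not occur among the listed genes.

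The 250 bases before the canonical start of Spink1 were searched for 8 short motifs. They held 2 matches to AGATAA, the letters bound by GATA factors (both strands searched), which began 91 and 37 bases before the start. Of 14287 tested genes with a window of the same length, 7.66% held at least 1 match and 0.518% held at least 2.

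The other 7 motifs had no match before Spink1. The TATA box, written TATAAA and read on the forward strand, occurred in 5.2% of all windows, and the other motifs were read on both strands. The CDX core TTTATNG was found in 7.92% of windows and the STAT pattern TTCNNNGAA in 6.5% of them. CTTTGA, bound by TCF factors, was present in 12.1%, and TGTTTNC, bound by FOXA factors, in 15.1%. The E-box CAGCTG was there in 11.1% of windows and the GC box GGGCGG in 46.8%. A match says only that these letters are in the window, and the table holds no position of the CAGE tags within a gene.

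Digestive trypsins, the proteases Spink1 is known to block, were not among the genes that could be followed. Of 18 digestive or related proteases looked for, 2 are listed. The trypsinogen genes Prss1, Prss2 and Try4 and the trypsin activator Tmprss15 (enteropeptidase) are not among them. The 2 listed were both higher in the MAdCAM1 libraries, as were 19.7% of all tested genes. Klk1, tissue kallikrein, stood at 34.5 and 10.3 CPM in the IgG pair, against 425 and 203 CPM in the MAdCAM1 pair, with no overlap but a wide spread in both groups (log2 fold change 3.81, SE 0.78). Cela1, a chymotrypsin-like elastase, stood at 76.7 and 91.2 against 153 and 121 CPM (log2 fold change 0.70, SE 0.19). Their quasi-likelihood adjusted p-values were 0.665 and 0.691, and both the exact test and DESeq2 called Klk1.

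Trypsin-like and related proteases of epithelium, matrix and immune cells, among them Gzma, Gzmb, Tpsab1 and Tpsb2, went both ways. Among the 22 that could be tested, 6 lay higher and 2 lower in both MAdCAM1 libraries and 14 overlapped, with a median log2 fold change of −0.22. Over all tested genes, 19.7% were higher and 18.7% lower without overlap, and the median was −0.00. The quasi-likelihood test called 0 of the 22. At its unadjusted p under 0.05, 4 were higher and 0 lower (5.09% and 1.82% of all genes). The exact test called 2 of them higher (1.06% of all genes), DESeq2 called 4 higher (1.53%), and limma-voom called 0.

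The members with the smallest p were these. Prss30, a serine protease, had 6.83 and 7.73 CPM in the IgG pair, against 41.1 and 30.8 CPM in the MAdCAM1 pair (log2 fold change 2.30, SE 0.23, quasi-likelihood adjusted p = 0.640). It was low in both IgG mice and high in both MAdCAM1 mice, as Spink1 was. Hgfac, the activator of hepatocyte growth factor, stood at 39.3 and 33.3 against 93.5 and 75.0 CPM. Tmprss2, a protease of the cell surface, had 193 and 173 CPM against 307 and 286, with Prss32 at 176 and 107 against 329 and 310.1 CPM. For these 3 the groups did not overlap either, and DESeq2 called all 3, with quasi-likelihood adjusted p-values from 0.640 to 0.671.

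**Figure D2:**
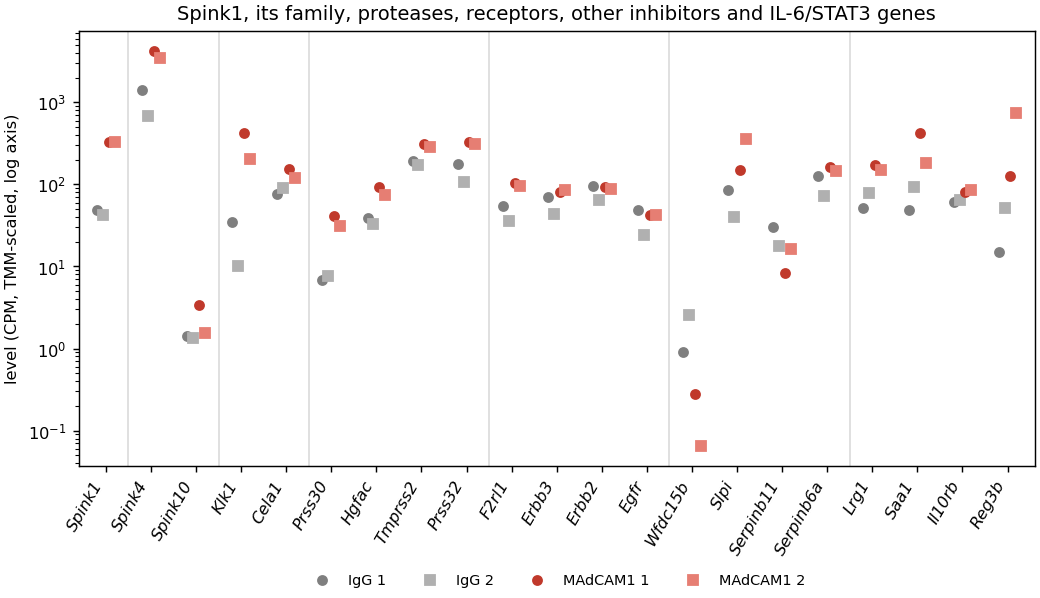
Level in CPM (log axis) of Spink1 and the named genes of its pathway in each library, grouped from left to right as Spink1, Spink family, digestive proteases, epithelial and matrix proteases, receptors, other inhibitors, and IL-6 and STAT3 genes. Grey points are IgG and red points MAdCAM1, and the gap between the colours is wider for Spink1 than for Erbb2 or Egfr, whose points overlap.

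PAR2 had the smallest p of the receptors tested. Its gene F2rl1 stood at 54.7 and 35.7 CPM in the IgG pair, against 103 and 94.9 CPM in the MAdCAM1 pair, a log2 fold change of 1.13 (SE 0.25, quasi-likelihood adjusted p = 0.665). DESeq2 called it, and the exact test did not. Of the EGF receptor family, Egfr stood at 48.9, 24.0, 43.0 and 42.3 CPM and Erbb2 at 95.2, 65.1, 92.5 and 88.5 CPM (IgG 1, IgG 2, MAdCAM1 1, MAdCAM1 2 in turn), and both overlapped. Their log2 fold changes of 0.23 (SE 0.38) and 0.17 (SE 0.22) turned negative without IgG 2, to −0.20 and −0.08. Erbb3 stood at 70.7 and 43.7 against 80.9 and 86.1 CPM (log2 fold change 0.54, SE 0.27). Of 5 receptors tested, 2 were higher without overlap and 0 lower, against 19.7% and 18.7% of all genes. None (0) was called by the quasi-likelihood test, with 1 higher at an unadjusted p under 0.05 (5.09% of all genes). The exact test called 0, DESeq2 called 1 (1.53% of all genes higher) and limma-voom called 0.

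Of 25 other serine protease inhibitors tested, 4 were higher without overlap, 3 were lower and 18 overlapped, with a median log2 fold change of 0.27. These counts are no larger a share than the 19.7% higher and 18.7% lower of all genes. Slpi, an inhibitor of neutrophil elastase, stood at 84.5 and 39.7 CPM in the IgG pair, against 149.6 and 357 CPM in the MAdCAM1 pair, with MAdCAM1 2 far above MAdCAM1 1 (log2 fold change 2.03, SE 0.60). Wfdc15b, a whey acidic protein family member, was the other way round at 16 and 42 tags in the IgG pair, against 4 tags and 1 tag in the MAdCAM1 pair. The intracellular serpin Serpinb11 was lower, at 30.5 and 18.0 against 8.33 and 16.4 CPM, and Serpinb6a higher, at 127 and 73.2 against 164 and 147 CPM. The quasi-likelihood test called 0 of the 25. At its unadjusted p under 0.05, 1 was higher and 1 lower (5.09% and 1.82% of all genes). The exact test called 0, DESeq2 called 1, Slpi (1.53% of all genes higher), and limma-voom called 0.

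Of 20 tested members of the IL-6 and STAT3 list, 5 were higher without overlap, 0 were lower and 15 overlapped, with a median log2 fold change of 0.08. The share higher is near the 19.7% of all genes, of which 18.7% were lower. The acute-phase gene Lrg1 stood at 51.4 and 79.6 CPM in the IgG pair, against 171 and 151 CPM in the MAdCAM1 pair, and Saa1, a serum amyloid, at 49.4 and 93.9 against 427 and 184 CPM. Reg3b, an antimicrobial lectin, stood at 15.0 and 51.1 against 125 and 745 CPM, so that MAdCAM1 2 stood far above the rest. Il10rb, a receptor chain for IL-10 and IL-22, stood at 61.8 and 63.8 against 81.4 and 85.2 CPM.

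Stat3 itself stood at 162, 187, 166 and 165 CPM, and its feedback inhibitor Socs3 at 69.6, 144, 83.5 and 48.2 CPM, both overlapping. The acute-phase members Saa3 and Hp overlapped too, Saa3 at 23.0, 277, 66.3 and 316 CPM and Hp at 18.0, 84.9, 24.9 and 138 CPM, with the first library of each group low. Reg3g also overlapped, at 181, 94.3, 179 and 450.1 CPM. These 5 genes were picked after their values were seen. The ligand genes Il6, Il11 and Il22 do not occur among the listed genes. The quasi-likelihood test called 0 of the 20, with 4 higher at an unadjusted p under 0.05 (5.09% of all genes), and limma-voom called 0. Both DESeq2 and the exact test called Lrg1 and Saa1 (1.53% and 1.06% of all genes were called higher by these tools).

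Over all pathway lists together, without Spink1, 76 of 142 genes could be tested. Without overlap, 21 were higher and 5 were lower (27.6% and 6.58%, against 19.7% and 18.7% of all genes). Scaled by library size alone, 19 were higher and 8 lower, against 13.6% and 28.6% of all genes. The quasi-likelihood test and limma-voom each called 0 of the 76, the exact test called 6 and DESeq2 called 10, all of them higher. Of all genes, the exact test called 1.06% higher and 0.0628% lower, and DESeq2 1.53% higher and 0.14% lower. The median log2 fold change of the 76 was 0.15. These genes were named with earlier results of these data known, and no list test was made.

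In bulk tissue, fewer cells of a type and less RNA per cell cannot be told apart, so Spink1 was also set against epithelial genes of the same library. All 12 general epithelial genes looked for are listed, among them Epcam and Krt8. Of these, 11 were higher in both MAdCAM1 libraries and 0 lower, against 19.7% and 18.7% of all genes. The quasi-likelihood test called 0 of the 12, with 8 higher at an unadjusted p under 0.05 (5.09% of all genes). The exact test called 2 higher (1.06% of all genes), DESeq2 5 (1.53%) and limma-voom 0. The summed level of the 12 genes was 7881 and 6849 CPM in the IgG pair, against 12835 and 11173 CPM in the MAdCAM1 pair, a ratio of means of 1.63. Per 1000 tags of this list, Spink1 had 6.20 and 6.17 tags in the IgG pair, against 25.8 and 29.4 tags in the MAdCAM1 pair. The groups did not overlap, and the ratio of means was 4.47, against 7.25 for the level itself.

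The choice of denominator changed this ratio. Per 1000 Epcam tags, Spink1 had 25.1 and 20.6 tags in the IgG pair, against 104 and 117 in the MAdCAM1 pair, a ratio of 4.83. Per 1000 tags of the absorptive colonocyte list, which was itself 2.76 times higher in the MAdCAM1 pair, it had 23.7 and 39.2 against 80.3 and 72.4 tags (ratio 2.43). Per 1000 tags of the goblet cell list, which was 4.16 times higher and includes Spink4, it had 15.6 and 34.1 against 31.1 and 43.9 tags. There the groups overlapped, with a ratio of 1.51. Both lists are summed tags, so their most abundant members, Lypd8 for colonocytes and Spink4 for goblet cells, weigh most in these ratios.

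**Figure D3:**
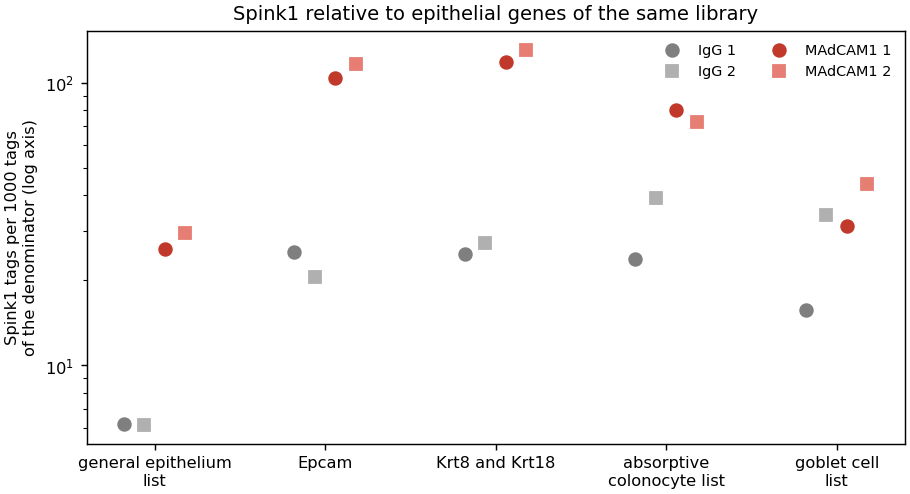
Spink1 tags per 1000 tags of 5 epithelial denominators (log axis), 1 point per library, grey for IgG and red for MAdCAM1. The groups stand apart for the first 4 denominators and overlap for the goblet cell list, where IgG 2 at 34.1 lies above MAdCAM1 1 at 31.1.

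Markers of several other cell types moved with the groups as Spink1 did, and their part in its level was not tested. The summed goblet cell list stood at 3121 and 1239 CPM in the IgG pair, against 10652 and 7482 CPM in the MAdCAM1 pair (11 of 15 members higher without overlap, 0 lower). Absorptive colonocyte markers stood at 2059 and 1077 against 4130 and 4538 CPM (14 of 17 higher, 0 lower). Enteroendocrine markers stood at 25.8 and 7.17 against 143 and 168 CPM (8 of 9 higher, 0 lower). Of all genes, 19.7% were higher without overlap and 18.7% lower. The quasi-likelihood test called 0 members of these lists, with 9, 13 and 6 higher at an unadjusted p under 0.05 (5.09% of all genes). Limma-voom called 0, the exact test 4, 7 and 3 (1.06% of all genes higher), and DESeq2 5, 8 and 3 (1.53%). The largest member of each list weighed heavily in its sum. Spink4 supplied 1396 and 679 CPM in the IgG pair, against 4228 and 3430 CPM in the MAdCAM1 pair. Lypd8 supplied 1089 and 553 against 1906 and 2609 CPM to the colonocyte sum. Pyy supplied 14.9 and 4.70 against 95.6 and 105 CPM to the enteroendocrine sum.

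Markers of stroma and leukocytes overlapped between the groups as sums. Smooth muscle and fibroblast genes summed to 2104, 1131, 514 and 3056 CPM (IgG 1, IgG 2, MAdCAM1 1, MAdCAM1 2 in turn), and leukocyte genes to 1540, 1733, 915 and 3841 CPM. Both were highest in MAdCAM1 2 and lowest in MAdCAM1 1, the 2 libraries in which Spink1 differed by 1.01-fold. Stem cell markers summed to 736, 864, 844 and 553 CPM and Paneth cell markers to 2351, 3563, 3334 and 2932 CPM, and both overlapped between the groups.

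Pancreatic acinar cells, the best known source of Spink1, were checked by 25 markers, of which 5 are listed. The defining enzymes and factor, such as Cpa1, Ctrb1, Pnlip and Ptf1a, are not among the listed genes. A gene can be unlisted and still present, since clusters that were low, long or irreproducible between replicates were discarded. The 5 summed to 245 and 431 CPM in the IgG pair, against 465 and 363 CPM in the MAdCAM1 pair, which overlap. Pnliprp1, which ran the other way from the rest, was the largest member in both IgG libraries. In both MAdCAM1 libraries the largest was Cela1, at 153 and 121 CPM. Singly, 4 of the 5 were higher without overlap, 1 was lower and 0 overlapped (19.7% and 18.7% of all genes were higher and lower). Sycn, a protein of zymogen granules, stood at 5.86 and 1.24 CPM against 99.7 and 100.4 CPM, and Clps, the cofactor of pancreatic lipase, at 31.6 and 26.4 against 80.7 and 46.2 CPM. Bhlha15, a transcription factor of secretory cells, stood at 4.55 and 1.98 against 6.02 and 6.60 CPM. The fourth higher gene was Cela1, and the lower gene was the lipase-related Pnliprp1, at 126 and 310.1 against 126 and 89.0 CPM. Pnliprp1 was nearly equal in IgG 1 and MAdCAM1 1, at 126.4 and 125.9 CPM. The part of these 5 genes in the level of Spink1 was not tested. The quasi-likelihood test called 0 of the 5, with 3 higher at an unadjusted p under 0.05 (5.09% of all genes), and limma-voom called 0. Both DESeq2 and the exact test called 1, Sycn (1.53% and 1.06% of all genes were called higher by these tools).

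**Figure D4:**
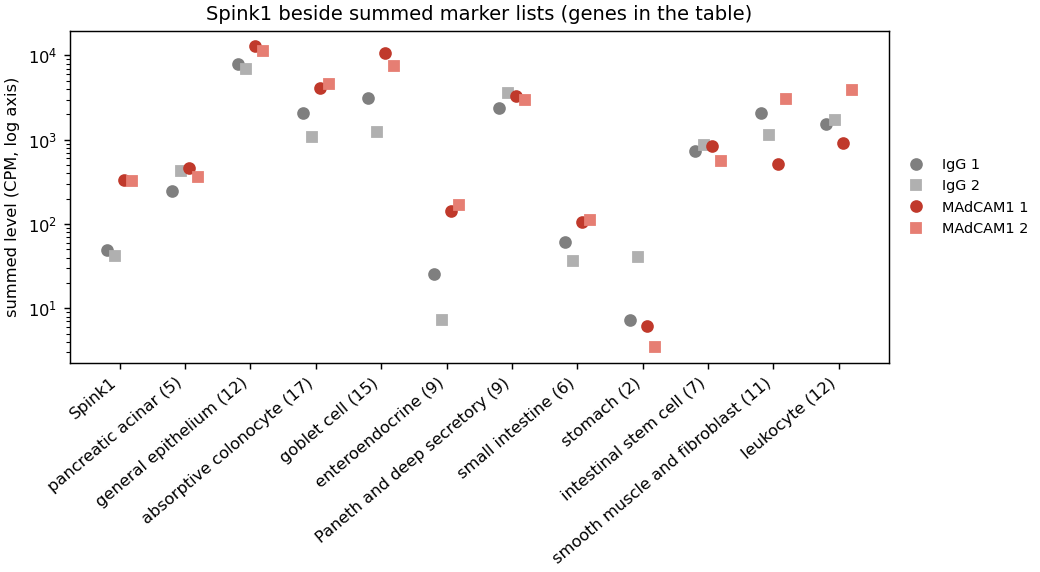
Spink1 level and summed levels of 11 marker lists in CPM (log axis), 1 point per library, with the number of listed genes in brackets. The goblet, colonocyte and enteroendocrine sums separate the groups in the direction of Spink1, whereas the stroma and leukocyte sums are highest in MAdCAM1 2 and lowest in MAdCAM1 1.

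The genes most like Spink1 were sought by the distance between profiles of log2 CPM, each centred on its mean over the 4 libraries, among 12532 named genes with a mean of at least 1 CPM. The distances of the closest 10 ran from 0.43 to 0.62 on the log2 scale, and 38 genes lay within a distance of 1. In order they were Ces2e, Xlr3b, Cyp2d12, Zfp385b, Slc16a5, Abo, Clca4a, Sult1c2, Tff3 and Sval1. Their likeness follows from the choice, so they carry no test.

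Most were far less abundant than Spink1. The carboxylesterase Ces2e was the closest, at 2.39 and 3.09 CPM in the IgG pair, against 19.1 and 18.1 CPM in the MAdCAM1 pair. Xlr3b rested on 6 and 5 tags in the IgG pair, against 33 and 54 in the MAdCAM1 pair, and the cytochrome P450 Cyp2d12 on 8 and 4 against 62 and 55 tags. The blood group glycosyltransferase Abo stood at 1.59 and 1.67 CPM against 8.89 and 8.74 CPM, and the sulfotransferase Sult1c2 at 0.854 and 0.866 against 11.6 and 8.74 CPM. In each of these both MAdCAM1 mice stood above both IgG mice, and the low tag counts limit how closely the profiles can be compared.

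At the abundant end, Tff3, the trefoil peptide of goblet cells, stood at 303 and 170 CPM in the IgG pair, against 1252 and 1192 CPM in the MAdCAM1 pair. Sval1 stood at 104 and 58.3 against 820.0 and 602 CPM. Slc16a5, a monocarboxylate transporter, had 22 and 10 tags against 103 and 101, the zinc finger gene Zfp385b 9 and 7 against 41 and 50, and Clca4a, a secreted regulator of chloride channels, 27 and 35 against 235 and 180. Of these 10 genes, 0 had an AGATAA match in the 250 bases before the start, where 7.66% of all windows held 1 or more. With so few genes, nothing is read from that. The set of 10 depended on single libraries: 1 of them was among the closest 10 without IgG 1, 4 without IgG 2, 5 without MAdCAM1 1 and 3 without MAdCAM1 2.

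**Figure D5:**
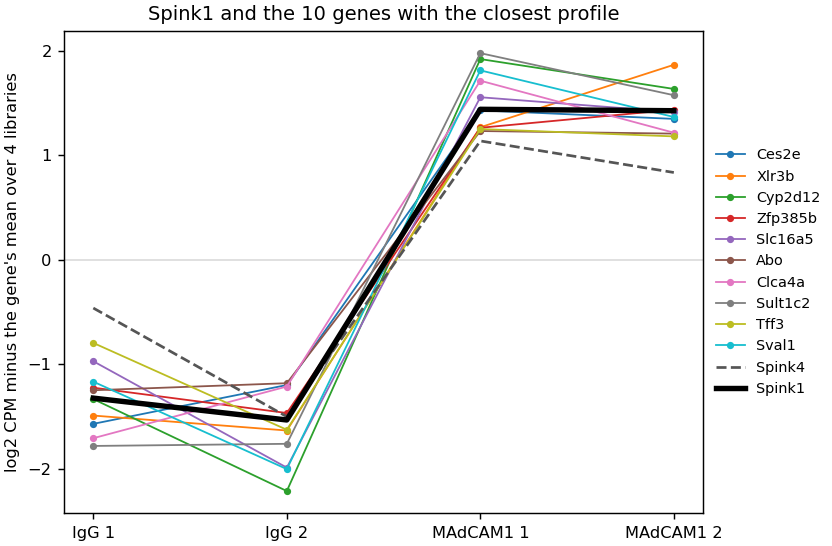
Profiles of Spink1 (thick black), the 10 genes closest to it (thin lines) and Spink4 (dashed), as log2 CPM minus each gene's mean over the 4 libraries, with no prior count added. Spink1 is nearly flat within each group, and the dashed Spink4 line lies closer to 0 in IgG 1 and in both MAdCAM1 libraries.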

How the data were processed

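RNA of colon tumours was measured by CAGE in 4 libraries, 2 per antibody group, taken as 1 per mouse. The authors deposited raw tag counts per gene, checked here to be whole numbers with differing totals. Per the labels' protocols, tags were mapped to GRCm39 with BWA 0.7.17 and HISAT2 2.0.5 and clustered in the RECLU pipeline (bedtools 2.12.0, with edgeR 3.22.5 for differential expression), which discarded clusters that were low, long or irreproducible between replicates. The step from clusters to genes is not given in the sources used here.

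Libraries held 14850923 to 16891234 tags, so that 1 tag equals 0.0569 to 0.0700 CPM. Genes were filtered with filterByExpr (14331 of 14979 kept), scaled by TMM and compared as MAdCAM1 minus IgG by edgeR 4.0.16's robust quasi-likelihood test under R 4.3.3, with Benjamini-Hochberg adjustment and a threshold of 0.05. Spink1 and all lists were chosen with earlier results of these data known. Named genes were every listed Spink gene, up to 4 members per pathway list by smallest p, the 10 genes nearest to Spink1 (prior count 2) and the 3 listed genes on each side of it. Genes named outside this rule, such as those above Spink1 in fold change and single cell type markers, were picked with their values known. The alternatives tried were scaling by upper quartile, RLE or library size alone, other filters, leaving out each library, a replicate block, DESeq2 1.42.0, limma-voom (limma 3.58.1) and edgeR's exact test. Tests and distances were also run on simulated data, and nothing is read from those runs here. No column was left out (0 columns). An upstream sequence is not reported here.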

Additional observations from a re-analysis of the deposited data

How the results depend on the processing

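The log2 ratio of Spink1 between the groups, 2.86, ran from 2.76 to 2.86 over the scalings, filters, tools and blocks tried, and from 2.75 to 2.95 on leaving out each library. Per epithelial tag the log2 ratio was 2.16, with 2.27 against Epcam, 2.26 against Krt8 and Krt18, 1.28 against colonocyte markers and 0.59 against goblet markers, and 2.06 to 2.25 on leaving out each library. Genes called numbered 0 by the quasi-likelihood test, also in each fit without a library (0 to 0), 239 by DESeq2 and 161 by the exact test, and among pathway genes 0, 10 and 6. On leaving out each library the log2 fold changes of Egfr ran from −0.20 to 0.81 and of Erbb2 from −0.080 to 0.46, negative without IgG 2. Among the neighbours, Eif3j2 and the miRNA gene inside it (0.17) ran from −0.096 (without IgG 1) to 0.46, with −0.017 without MAdCAM1 1, and Mcc (−0.12) from −0.38 to 0.10 (without MAdCAM1 2). No other gene named by the rule changed sign under the alternatives run. The cause was not tested. With the replicate number as a block, which pairs libraries taken as different mice, 0 genes were called and the Spink1 log2 ratio was 2.86. Deviations of same-numbered libraries from their group means had a weak negative correlation (r = −0.14 across 14331 genes, which are not independent replicates). The crossed pairing, added after the data were seen, called 0 genes. With 2 libraries per group, a lone library left in a group was assumed to vary like the others.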

Other observations

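Of 12 markers of small intestine looked for, which the colon expresses little, 6 are listed. Of these, 5 were higher without overlap in the MAdCAM1 libraries and 1 was lower, against 19.7% and 18.7% of all genes. Apob, the apolipoprotein of chylomicrons, stood at 1.08 and 2.41 CPM in the IgG pair, against 18.9 and 20.1 CPM in the MAdCAM1 pair. Fabp2, a fatty acid binding protein of enterocytes, had 0.683 and 1.05 CPM against 10.5 and 4.27, while the ileal bile acid binding protein Fabp6 had 2 and 0 tags against 21 and 76. The glucose transporter Slc5a1 had 51.1 and 25.2 CPM against 70.4 and 73.7, Rbp2 had 1.65 and 1.36 against 1.82 and 1.75 CPM, and the peptidase Anpep was lower, at 7.06 and 6.25 against 2.87 and 6.15 CPM. The separation was small for Rbp2, with 29 and 22 tags against 26 and 27 (log2 fold change 0.24, SE 0.40). For Anpep it rested on 101 tags in IgG 2 against 95 in MAdCAM1 2. The quasi-likelihood test called 0 of the 6 over all genes, with 3 higher at an unadjusted p under 0.05 (5.09% of all genes). Limma-voom called 0. Both DESeq2 and the exact test called 3, Apob, Fabp2 and Fabp6 (1.53% and 1.06% of all genes were called higher by these tools).

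Of 12 stomach markers 2 are listed, and both were lower in the MAdCAM1 libraries, as were 18.7% of all genes. The gland mucin Muc6 stood at 6.49 and 38.7 CPM in the IgG pair, against 5.88 and 3.30 CPM in the MAdCAM1 pair, with IgG 2 far above the rest, and Gkn3 had 15 and 25 tags against 5 and 2. The quasi-likelihood test called 0 of these, with 1, Gkn3, lower at an unadjusted p under 0.05 (1.82% of all genes). The exact test, DESeq2 and limma-voom each called 0.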
